A study of Mus musculus with 8 samples.

Results

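Pou5f1 encodes Oct4, the POU-domain transcription factor that holds embryonic stem cells in the pluripotent state. The gene lies on the forward strand of chromosome 17 from 35506032 to 35510777 in GRCm38, the assembly of mm10, and is 4746 bp long. The locus was taken as the gene plus 100 kb to each side, 35406032 to 35610777 on chromosome 17, and every peak with its summit in those 204.7 kb was a member. That gave 115 peaks of 254001 in the 4 deposited peak lists, of which 38 came from the C59 CTCF list, 41 from the WT CTCF list, 11 from the C59 Smc3 list and 25 from the WT Smc3 list. The choice of members used position alone and no measured value. At the downstream edge the last CTCF summit inside lay 53 bp from the edge in C59 (fold 4.13) and 76 bp from it in WT (fold 6.70), and the next ones lay 13323 bp (C59, fold 17.7) and 13336 bp (WT, fold 18.3) beyond it.

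The peaks came from chromatin immunoprecipitation and sequencing (ChIP-seq) in JM8.N4 cells, a mouse embryonic stem cell line, kept feeder-free with serum and LIF. C59 is a single clone, homozygous for a knock-in that puts a FLAG epitope and a HaloTag on CTCF and a SNAPf tag and a V5 epitope on Rad21. The wild-type (WT) cells are the same line without the tags. The antibody labels of the cohesin libraries and the design text of the series name Smc3, whereas the extraction protocol of the same samples names antibodies to Rad21 and CTCF and none to Smc3. The antibody labels were followed here, and which of these cohesin subunits was precipitated could not be checked from the lists. Each line gave 1 CTCF and 1 Smc3 library, so no difference between C59 and WT could be set against replicates, and no test between the lines was made. The lists hold no expression values, so the cell type and the tags could not be checked against marker genes. Neither were read totals given, and the depth of the libraries is unknown.

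CTCF recognises DNA through its zinc fingers and marks insulators and the anchors of loops. Cohesin, the ring complex that contains Smc3, Smc1a and Rad21, extrudes chromatin loops and is halted by CTCF, which is why both are usually found at the same places. Cohesin has also been described at active enhancers and promoters without CTCF. In mouse embryonic stem cells Pou5f1 is driven by a distal enhancer, and in the later epiblast by a proximal enhancer, both within a few kb upstream of the start. They were taken here as the stretches 1.5 to 2.5 kb and 0.5 to 1.5 kb upstream, set from general knowledge and not from the files.

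Sequences of 3 start sites show where the peaks stand against promoters. They are the 250 bases before the start from RefSeq (GRCm38.p6), all on the forward strand of chromosome 17, given 5′ to 3′. The first is the annotated Pou5f1 start, chr17:35505782-35506031, which no peak touched. The second precedes a further RefSeq start inside Pou5f1, chr17:35508557-35508806, which the CTCF peaks of both lines covered over all 250 bases and a WT Smc3 peak over 81. The third precedes the first start of Cdsn, chr17:35542851-35543100, where the CTCF summits stood 31 bp before the start in C59 and 59 bp before it in WT. Capitals mark a GC box, GGGCGG, the element that Sp1 binds.
Pou5f1 start: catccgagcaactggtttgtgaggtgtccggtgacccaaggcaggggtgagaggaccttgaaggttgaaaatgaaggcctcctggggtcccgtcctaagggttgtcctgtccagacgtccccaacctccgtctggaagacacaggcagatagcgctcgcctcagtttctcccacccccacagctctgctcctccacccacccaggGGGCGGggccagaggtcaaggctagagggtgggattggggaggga
Pou5f1 inner start: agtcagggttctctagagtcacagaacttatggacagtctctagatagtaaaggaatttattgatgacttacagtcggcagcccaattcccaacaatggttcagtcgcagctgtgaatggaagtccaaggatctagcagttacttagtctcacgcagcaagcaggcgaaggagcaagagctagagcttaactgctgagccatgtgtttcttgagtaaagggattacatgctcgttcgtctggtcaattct
Cdsn start: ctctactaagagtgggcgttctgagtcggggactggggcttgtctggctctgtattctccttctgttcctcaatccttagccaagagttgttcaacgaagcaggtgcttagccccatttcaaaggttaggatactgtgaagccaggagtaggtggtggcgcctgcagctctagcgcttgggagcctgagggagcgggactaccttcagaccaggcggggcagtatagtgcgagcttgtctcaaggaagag

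On both strands of the 300 bases from 250 before to 50 after each start, 3 motifs were searched. They were the core of the CTCF motif (CCA, any 2 bases, AG, any 2 bases, GGC), the GC box GGGCGG and the octamer ATGCAAAT that POU factors recognise. The letters of these motifs do not contain one another. The Pou5f1 start held 1 GC box, whose first base lay 45 bases before the start, and neither of the other motifs. The inner start and the Cdsn start held none of them. Among 32851 promoters of that length, 2.43% held the CTCF core, 35.7% a GC box and 1.74% the octamer. Of promoters with a CTCF summit inside, 14.7% in C59 (294 of 2003) and 13.4% in WT (311 of 2326) held this core, so a promoter with a summit and without the core was the usual case. In the locus the core was also found in the promoter of Gm32252, a long non-coding RNA whose first bases lay under a CTCF peak of each line, and before the second start of Cdsn, which no peak overlapped. A match of letters does not show binding, and no match says only that these letters are not in the window.

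The Pou5f1 start and its enhancers carried no CTCF or Smc3 peak in either line. From the start, the nearest CTCF peak upstream ended 8179 bp away in C59 and 8096 bp away in WT. The next CTCF peak downstream began 1863 bp after the start in C59 and 1818 bp after it in WT. For Smc3 the empty stretch ran over 22.7 kb in C59, from 19296 bp before to 3369 bp after the start, and over 10.3 kb in WT, from 8200 bp before to 2086 bp after. In all 4 lists together 9.91 kb around the start held no peak. Gm32362, a long non-coding RNA on the reverse strand that starts close to Pou5f1 and runs away from it, lay wholly in this stretch. An empty 2.5 kb upstream of the start is the rule rather than the exception. Of 17492 protein-coding genes with a known strand, 22.8% had a CTCF summit there in C59 and 26.0% in WT, and 7.01% had a Smc3 summit in C59 and 13.5% in WT. A place without a peak was below the authors' threshold. The lowest fold enrichment in the locus lay between 2.52 in WT Smc3 and 3.73 in C59 Smc3. Over the whole lists it was lower, between 1.30 in WT CTCF and 1.87 in WT Smc3.

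Inside Pou5f1, each line had 1 broad CTCF peak over the middle and later part of the gene. In C59 it spanned 35507895 to 35510060, 2166 bp, with a fold enrichment of 18.4 and a pileup of 109.59. In WT it spanned 35507850 to 35510075, 2226 bp, with a fold enrichment of 18.0 and a pileup of 142. Fold enrichment is the pileup at the summit over the local background, and both are the authors' values, which describe a peak within its own list because the lists were scaled differently. The summits stood 3457 bp after the start in C59 and 3453 bp after it in WT, 4 bp apart. By fold the peak stood at percentile 66.7 of the C59 list and 70.9 of the WT list. By width it stood far higher, at percentile 99.9 in C59 and 99.7 in WT. A CTCF summit lay inside 58.5% of protein-coding genes in C59 and 62.5% in WT among genes of all lengths.

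Smc3 stood at 1 place inside Pou5f1 in C59 and at 2 places in WT. In C59 the peak had a fold of 4.28 and its summit at 35509534, 3502 bp after the start and 45 bp from the CTCF summit. In WT a peak of fold 8.61 had its summit at 35509453, 3421 bp after the start and 32 bp from the CTCF summit, and the 2 Smc3 peaks overlapped between the lines. The further WT peak, at 35508118 to 35508637 with a fold of 9.80 and a summit 2351 bp after the start, had no counterpart in C59, where the nearest Smc3 summit was 1151 bp away. Its own summit was 1102 bp from that of CTCF, so that it met CTCF only through the breadth of the CTCF peak. This was the strongest of the WT Smc3 peaks of the locus that were absent from C59. In the WT list it stood at percentile 81.3 by fold, in a decile of which 96.8% were found in C59. A Smc3 summit lay inside 30.1% of protein-coding genes in C59 and 44.7% in WT.

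**Figure D1:**
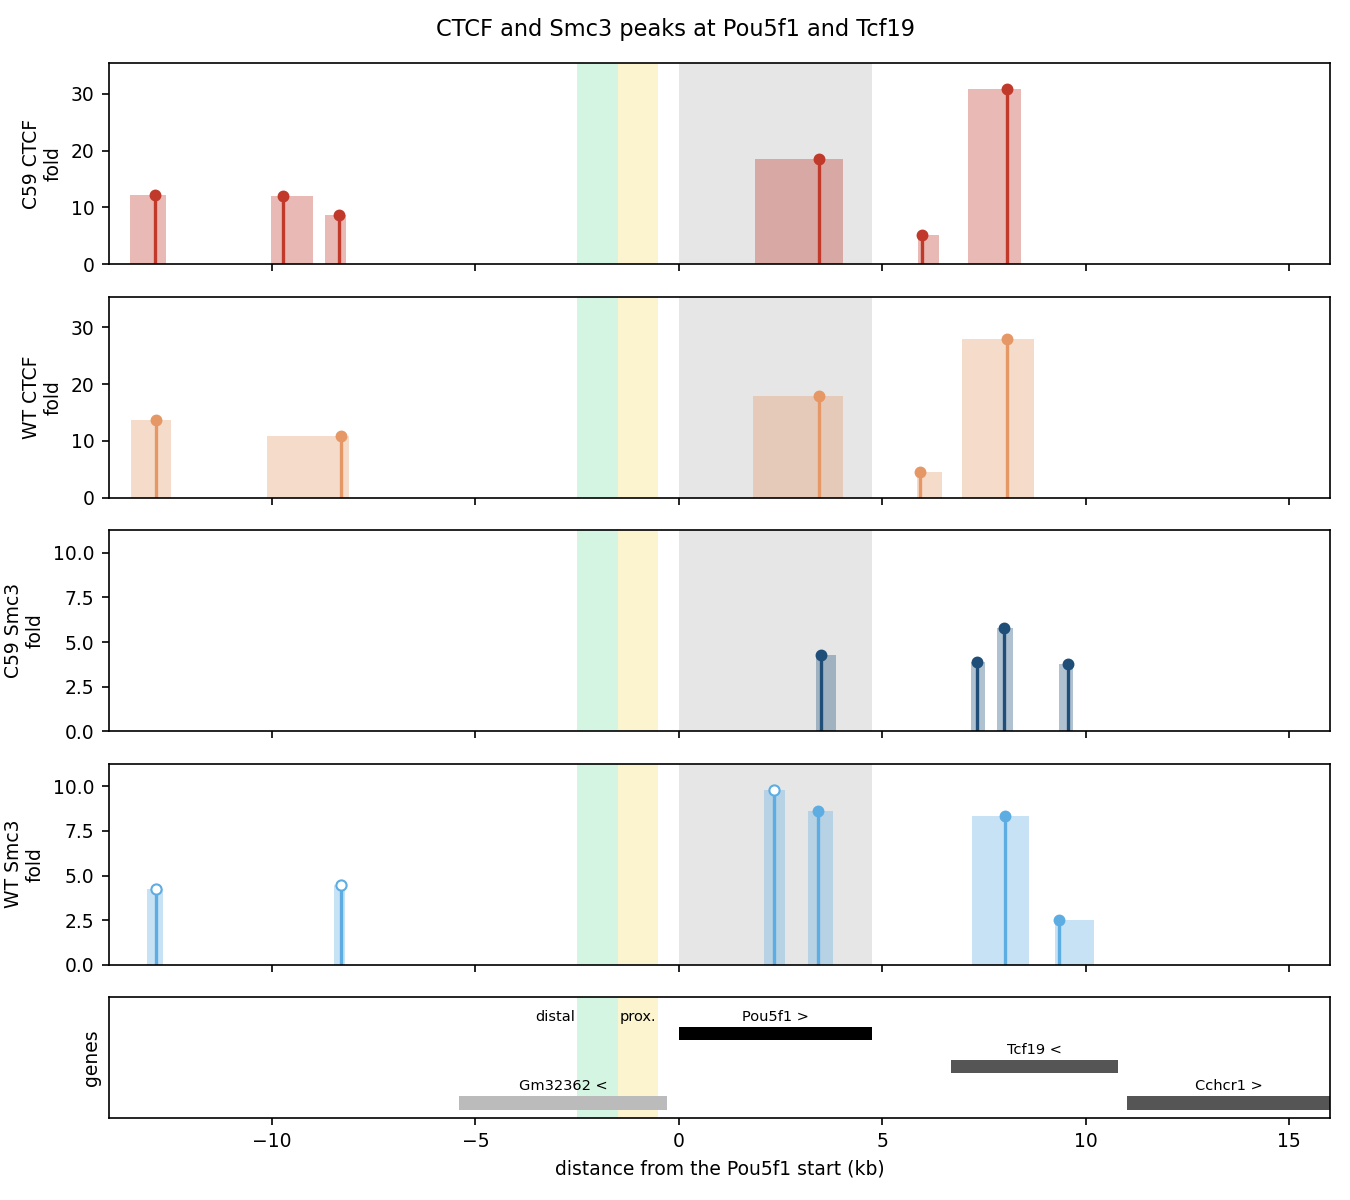
Fold enrichment of each peak (vertical axes) against distance from the Pou5f1 start in kb, with C59 above WT for each protein. Lines mark summits, coloured blocks the width of a peak, open circles peaks with no overlapping peak in the other line, grey the Pou5f1 gene, green and yellow the stretches taken as distal and proximal enhancer. No peak lies between the one that ends 8096 bp before the start and the one that begins 1818 bp after it, and the WT Smc3 peak of fold 9.80 has no C59 counterpart.

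Within 10 kb of Pou5f1, CTCF summits numbered 5 in C59 and 4 in WT, and Smc3 summits 4 in C59 and 5 in WT. Upstream, C59 had separate CTCF peaks of fold 12.0 and 8.64, with summits 9738 bp and 8358 bp before the start. In WT they were 1 peak of 2031 bp with a fold of 10.8 and its summit 8290 bp before the start, and that split accounts for the larger CTCF count in C59. A Smc3 peak of fold 4.46 stood on it in WT, with the same summit base as CTCF, and none stood there in C59. Between Pou5f1 and Tcf19 lay a weak CTCF peak, with a fold of 5.15 in C59 and 4.50 in WT, at percentile 19.2 and 18.0 of its list. It carried no Smc3 in either line.

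Tcf19, which encodes a protein with an FHA domain and a PHD finger, lies next to Pou5f1 on the reverse strand, with its end toward Pou5f1. Its CTCF peak had a fold of 30.8 in C59 and 28.0 in WT, at percentile 86.7 and 87.6 of the lists, and its summit lay 14 bp apart between the lines (35514088 in C59, 35514102 in WT). In C59 Smc3 stood under it as a pair of peaks of fold 3.86 and 5.79, the second with its summit 53 bp from that of CTCF. In WT it was 1 peak of 1426 bp with a fold of 8.31. Both C59 peaks overlapped the WT peak.

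The one Smc3 site of the locus without CTCF lay inside Tcf19 as well, and it was present in both lines. Its fold was 3.77 in C59, with the summit at 35515608, and 2.52 in WT, with the summit at 35515373. The summits lay 1229 bp (C59) and 1464 bp (WT) from the Tcf19 start, which is shared closely with the start of Cchcr1, a coiled-coil protein gene on the other strand. In the WT list the site stood at percentile 0.665 by fold and on a raised local background of 9.32, against a median of 5.10 for that list. In C59 it stood at percentile 10.0, on a background of 5.00 against a median of 4.26. The part of the background in these folds was not tested. Split by overlap with CTCF of the same line, 10 of 11 Smc3 peaks of the locus lay on CTCF in C59 (90.9%, 58.7 to 99.8) and 24 of 25 in WT (96.0%, 79.7 to 99.9). The shares over the whole lists were 97.9% and 95.2%. Where the overlap had to cover 50% of both peaks, these shares of the locus were 27.3% in C59 and 36.0% in WT. Intervals here and below are exact Clopper-Pearson intervals at 95% and cover counting error only.

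By an overlap of at least 1 bp, every CTCF site of C59 in the locus was also a site of WT. With summits within 150 bp, this held for 34 of the 38 C59 peaks. All 38 C59 CTCF peaks overlapped a WT CTCF peak (100%, 90.8 to 100), beside 97.1% for the whole C59 list. Of the 41 WT CTCF peaks 37 were found in C59 (90.2%, 76.9 to 97.3), beside 79.8% for the whole WT list. WT peaks drawn from the same deciles of fold as those of the locus had a share of 82.7%. The 4 WT peaks without a C59 counterpart all lay downstream and had folds of 3.22 to 5.22, against a median of 13.7 for the 37 that were found. Overlapping peaks of the lines merged into 40 sites, 36 of them with a peak in each line. Summits of the 38 C59 peaks lay at a median of 13 bp from the nearest WT summit, and 30 of the 38 within 50 bp. Over the 36 shared sites, the order of strength was much alike (Spearman's rho of 0.928 between the highest fold of each line, a description across sites of 1 library pair).

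Smc3 was listed at fewer places of the locus in C59 than in WT. By an overlap of at least 1 bp, the C59 places were all WT sites. All 11 C59 Smc3 peaks overlapped a WT Smc3 peak (100%, 71.5 to 100), beside 98.1% for the whole C59 list. Conversely, C59 had a peak at 10 of the 25 WT Smc3 peaks (40.0%, 21.1 to 61.3), beside 52.9% for the whole WT list and 46.5% at the same deciles of fold, both inside the interval. With all lists shortened to equal numbers of peaks, keeping those with the lowest p-values, 80.0% of the 10 WT Smc3 peaks left in the locus were found in C59. The 10 found had folds of 2.52 to 15.2 with a median of 8.91, and the 15 not found had folds of 2.83 to 9.80 with a median of 4.26. Of the 9 WT peaks in the 3 strongest deciles 7 were found, and of the 16 in the 5 weakest deciles 3 were. Over the whole WT list the share found also rose with fold. It was 89.2% to 99.6% across the 3 strongest deciles and 9.35% to 42.8% across the 5 weakest. By position, 2 of 8 were found upstream of Pou5f1, 1 of 2 inside it and 7 of 15 downstream. At each of the 15 places where C59 had no Smc3 peak, a CTCF peak stood in C59 and in WT (100%, 78.2 to 100 for C59), and the 15 shared 13 C59 CTCF peaks. For the whole WT list 86.3% of such places held C59 CTCF, which lies inside that interval.

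**Figure D2:**
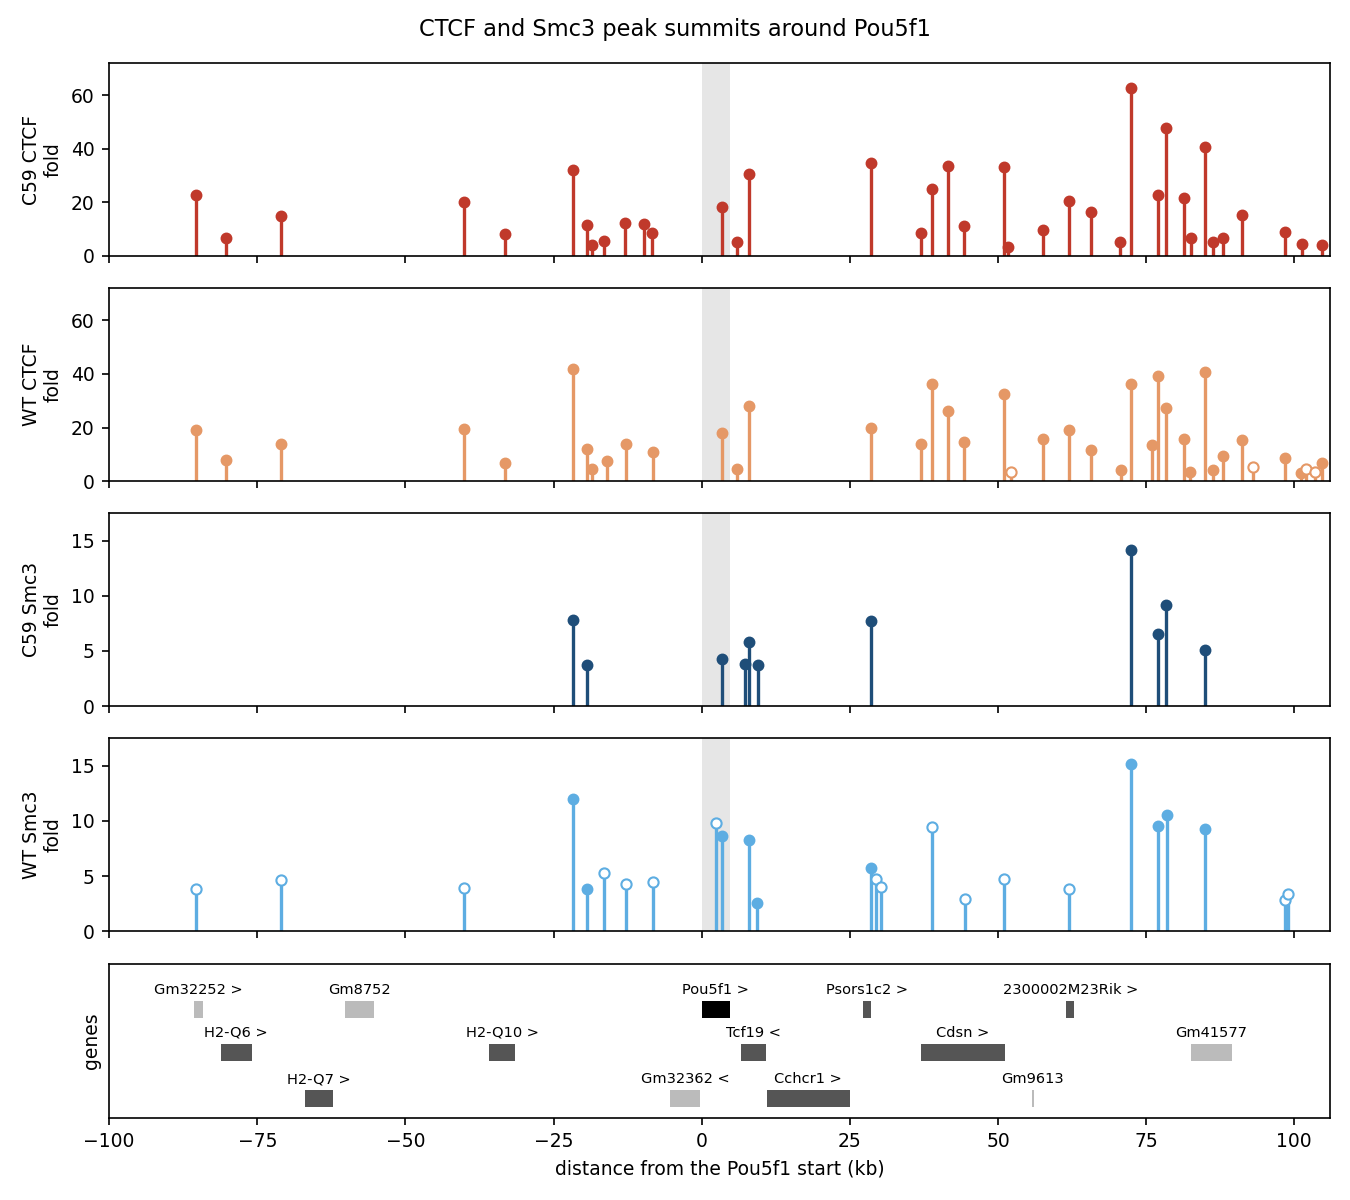
Fold enrichment of every peak of the locus (vertical axes, 1 scale for each protein) against distance of its summit from the Pou5f1 start in kb, with C59 above WT. Open circles have no overlapping peak in the other line, grey marks Pou5f1, and the lowest panel shows annotated genes (black Pou5f1, dark grey other protein-coding genes, light grey non-coding genes and pseudogenes; arrowheads give the strand where known). CTCF stands at nearly the same places in C59 and WT, while 15 of 25 WT Smc3 peaks are open circles. Over the whole WT lists, 79.8% of CTCF peaks and 52.9% of Smc3 peaks overlap a C59 peak of the same protein.

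In each line, CTCF peaks of the locus with Smc3 had a higher median fold than those without. In C59 the 9 CTCF peaks with Smc3 had folds of 11.4 to 62.7 with a median of 32.3, and the 29 without had folds of 3.28 to 33.4 with a median of 8.91. In WT the 20 with Smc3 had folds of 7.35 to 42.0 with a median of 19.3, and the 21 without had folds of 3.11 to 26.3 with a median of 6.70. The groups overlapped in both lines. The same split over the whole lists gave medians of 27.3 and 7.38 in C59 and of 21.1 and 5.64 in WT. Peaks of the locus with Smc3 were 850 to 2449 bp wide in C59, and those without 280 to 1438 bp. In WT these widths were 459 to 2483 bp and 250 to 1450 bp. The part of width in this split, made at an overlap of at least 1 bp, was not tested. Of the 41 WT CTCF peaks 9 carried Smc3 in both lines, with a median WT CTCF fold of 28.0, 11 in WT alone, with 14.5, and 21 in neither, with 6.70. The shares of the whole WT CTCF list in these groups were not computed. The whole Smc3 list is longer in WT, with 47281 peaks against 25734 in C59, so these counts are not a trait of the locus. With Smc3 were 23.7% of C59 CTCF peaks (11.4 to 40.2), beside 30.0% for that list and 33.7% at the same deciles of fold. In WT 48.8% of CTCF peaks had Smc3 (32.9 to 64.9), beside 44.3% for the list and 52.4% at the same deciles. These list shares lie inside the intervals.

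**Figure D3:**
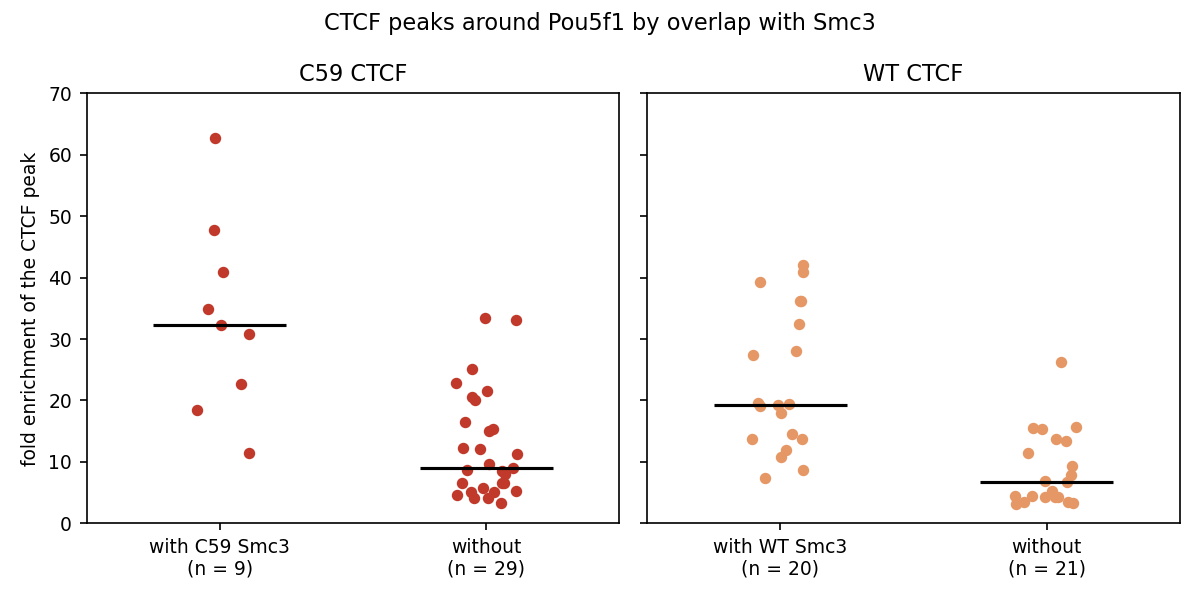
Fold enrichment of the CTCF peaks of the locus (vertical axis), split by overlap with a Smc3 peak of the same line, for C59 on the left and WT on the right. Points are peaks, shifted sideways at random, and lines are medians, which are 32.3 with and 8.91 without Smc3 in C59, and 19.3 with and 6.70 without Smc3 in WT.

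The gene's flanks differed in their numbers of listed peaks. Upstream, toward the class I genes of the major histocompatibility complex, there were 12 CTCF peaks in C59 and 11 in WT, and downstream, toward the skin genes, 25 in C59 and 29 in WT. Smc3 peaks numbered 2 upstream and 8 downstream in C59, and 8 upstream and 15 downstream in WT. At the upstream edge the first CTCF summit inside lay 14670 bp from the edge in C59 and 14666 bp in WT. The nearest ones outside lay 76176 bp (C59) and 76165 bp (WT) beyond it, so the edge fell in a long stretch without CTCF summits. The 3 CTCF peaks with the highest fold in C59 (62.7, 47.8 and 40.9) all lay downstream, 72.4, 78.4 and 85.0 kb from the Pou5f1 start. In WT the highest fold lay upstream, at −21.8 kb from the start, between H2-Q10 and Pou5f1 and outside genes (42.0). The peaks 84.9 kb (40.9) and 77.0 kb (39.4) downstream followed by fold. By pileup the WT peak 72.4 kb downstream stood highest, at 319 against 242 at −21.8 kb. The local backgrounds that these values imply were 7.83 and 4.78. The part of the background in the order by fold was not tested. The site at −21.8 kb had a CTCF fold of 32.3 in C59, and its Smc3 fold was 7.80 in C59 and 12.0 in WT.

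The strongest Smc3 peak of the locus was the same site in both lines, outside genes 72.4 kb downstream of the Pou5f1 start and beyond 2300002M23Rik. Its fold was 14.2 in C59, at percentile 98.5 of the list, and 15.2 in WT, at percentile 96.1. CTCF there had a fold of 62.7 in C59, at percentile 99.9, and 36.3 in WT, at percentile 96.0. Another Smc3 site 78.4 kb downstream had the next highest fold in C59 (9.18) and a fold of 10.5 in WT. The upstream site at −21.8 kb had the next highest fold in WT (12.0) and a fold of 7.80 in C59.

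Among the 8 protein-coding neighbours of Pou5f1, CTCF was found inside 6 in each line, beside the 58.5% (C59) and 62.5% (WT) of all genes given above. Smc3 was found inside 2 of the 8 in C59 and 4 in WT, beside 30.1% and 44.7% of all genes. H2-Q6 and H2-Q10, class I genes of the major histocompatibility complex, each held 1 CTCF peak in each line (folds of 6.54 and 8.01 in C59, 7.79 and 6.84 in WT) and no Smc3. H2-Q7, a class I gene as well, lay with the pseudogene Gm8752 in a stretch of 30.8 kb in C59 and 30.9 kb in WT between neighbouring CTCF summits. Class I genes are near-identical copies of one another, so reads from them can map to several places. The sources used here do not say how such reads were treated. Their part in this stretch, and in the lower counts of peaks upstream of Pou5f1, was not tested. Cchcr1 lay in a further stretch without CTCF, 20.5 kb long in each line.

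At Psors1c2, named for the human psoriasis susceptibility locus, a CTCF peak 2449 bp wide in C59 and 2483 bp wide in WT crossed the end of the gene. Its fold was 34.9 in C59 and 19.6 in WT, although the WT pileup was 292 and the C59 pileup 243.22. The local background that these values imply was 6.00 in C59 and 13.9 in WT, against list medians of 4.00 and 5.22. The Smc3 lists showed the same at this place, with a background of 7.00 in C59 and 13.6 in WT, against list medians of 4.26 and 5.10. The part of this raised WT background in the lower WT folds was not tested. C59 had 1 Smc3 peak under this CTCF peak, of fold 7.75, and WT had 3, of fold 5.70, 4.75 and 3.97. The first WT peak met the C59 peak, and the others had none in C59.

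Cdsn, which encodes corneodesmosin, an adhesion protein of the outer skin, held the most CTCF peaks of any gene of the locus, 4 in each line. Just before its first start stood a further CTCF peak, of fold 8.55 in C59 and 13.7 in WT. Inside the gene the folds ran from 11.3 to 33.4 in C59 and from 14.5 to 36.2 in WT. Smc3 stood inside Cdsn at 3 places in WT, with folds of 9.40, 2.90 and 4.75, and at none in C59. The first of these, 38.9 kb downstream of the Pou5f1 start, was the next strongest WT Smc3 peak of the locus that was absent from C59. It lay on a CTCF peak of fold 25.1 in C59 and 36.2 in WT, in a decile of WT Smc3 fold of which 89.2% were found in C59. At 2300002M23Rik a CTCF peak of fold 20.5 in C59 and 19.1 in WT stood within 1 kb of the start, with Smc3 in WT alone (3.82).

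Set beside other genes, the Pou5f1 locus was rich in listed peaks of both proteins. Its 38 CTCF peaks in C59 were more than the number within 100 kb of 98.3% of 21887 protein-coding genes, and its 41 in WT more than that of 96.6%. For the Smc3 peaks of the locus, 11 in C59 and 25 in WT, these shares were 93.6% and 98.6%. The medians over all genes were 13 CTCF peaks in C59 and 16 in WT, and 4 Smc3 peaks in C59 and 7 in WT. Windows of neighbouring genes share peaks, and longer genes have longer windows, so these shares are descriptions. They count peaks and not their strength. The median CTCF fold in the locus was 12.1 in C59 and 13.7 in WT, against 11.2 and 9.50 for the lists. For Smc3 it was 5.79 in C59 and 4.75 in WT, against 5.66 and 5.80 for the lists. Close to the gene the locus stood out less for CTCF. Within 10 kb, 71.2% of genes had fewer CTCF peaks in C59 and 52.9% in WT, and 94.0% had fewer Smc3 peaks in C59 and 88.6% in WT.

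Sox2 and Nanog, which encode the partners of Oct4 in the core pluripotency network, were set beside it. The Nanog window, on chromosome 6, resembled that of Pou5f1, with 40 CTCF peaks in each line and 14 Smc3 peaks in C59 and 27 in WT. The Sox2 window, on chromosome 3, held 20 CTCF peaks in each line and 8 Smc3 peaks in C59 and 11 in WT. Within 10 kb of the genes, Sox2 again had the fewest CTCF peaks, 2 in each line, against 5 in C59 and 4 in WT for Pou5f1 and 8 in C59 and 9 in WT for Nanog. Smc3 peaks within 10 kb numbered 6 in C59 and 7 in WT for Sox2, 4 in C59 and 5 in WT for Pou5f1, and 4 in C59 and 9 in WT for Nanog.

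**Figure D4:**
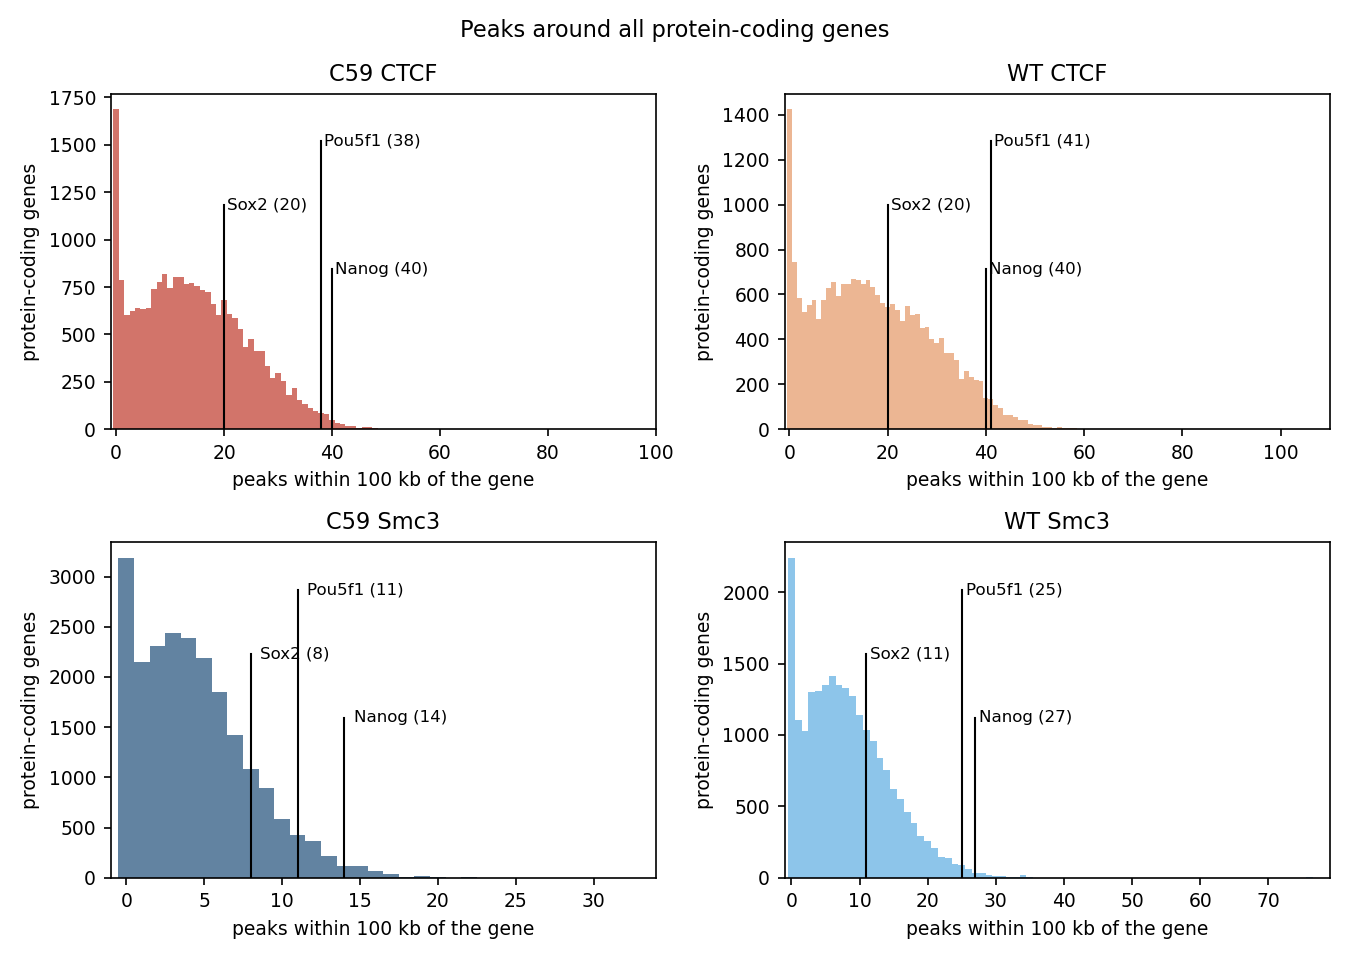
Number of protein-coding genes (vertical axes) by the number of peaks with a summit in the gene or within 100 kb of it (horizontal axes), for each peak list. Vertical lines mark Pou5f1, Sox2 and Nanog with their counts in brackets. Pou5f1 lies in the upper tail of each panel, close to Nanog and above Sox2.

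Of 24 pluripotency genes, listed with earlier results of these data known, all had a CTCF summit within 10 kb in C59 and in WT, beside 78.7% of all protein-coding genes in C59 and 80.9% in WT. Smc3 lay within 10 kb of 18 of them in C59 and 23 in WT, beside 53.3% and 68.8% of all genes. The median number of Smc3 peaks within 10 kb was 1 in C59 and 3 in WT for the list, and 1 in each line for all genes. Pou5f1, with 4 in C59 and 5 in WT, was above these medians in both lines. Esrrb, a nuclear receptor of the naive state, had 2 in C59 and 10 in WT, all of them inside the gene. Sall4, a zinc finger factor, had 3 and 8, and Tbx3 had 4 and 8. Tdgf1, a co-receptor of Nodal, had 4 in each line. At the other end, Klf5, Tfcp2l1, Zfp42, Lin28a, Lefty1 and Nodal had 0 in C59 and 1 to 3 in WT. Utf1 had 1 in C59 and 0 in WT. Longer genes have longer windows, and these counts were not set against gene length.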

How the data were processed

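ChIP-seq peak lists of 1 C59 CTCF, 1 WT CTCF, 1 C59 Smc3 and 1 WT Smc3 library were analysed. Groups came from the sample titles. The input and IgG samples were left out and not analysed here. The submitters' processing notes name Bowtie 0.12.8, MACS2 2.1.0.20140616 and mm10, with no role or order. The control, threshold and treatment of duplicate or multiply mapped reads are not given in the sources used here. The lists have the layout of a MACS2 table, with positions counted from 1. The pileup signal, the linear p-value and q-value, the fold ratio, and the peak length and summit in bp are the authors' values as deposited. Pileups are whole numbers in WT and come in steps of 0.96 (CTCF) and 0.77 (Smc3) in C59.

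The background under a summit was derived by dividing the pileup, raised by 1, by the fold and subtracting 1. Peaks counted as shared at an overlap of at least 1 bp. Shares of a list at the deciles of fold of the locus are the list's shares per decile, averaged over the deciles that the peaks of the locus fall in. Gene positions came from the RefSeq table of GRCm38.p6, strand and promoter sequences from the RefSeq promoter table, and all 24 listed symbols matched. Named were Pou5f1, the genes of the locus and the listed pluripotency genes, all peaks within 10 kb of Pou5f1, and the 3 highest by fold in each list. The other peaks described were picked after their values were seen. So were Esrrb, Sall4, Tbx3, Tdgf1 and the genes with 0 Smc3 peaks from the list. Members and lists were chosen with earlier results of these data known. No test between the lines was made, since each group has 1 library, and the depth that the lists do not give limits what a missing peak means. Alternatives covered the overlap rule, the q threshold, equal numbers of peaks, the window and the way peaks enter it. Overlap counting was tested on simulated data. Python 3.11.15, numpy 2.4.6, pandas 2.3.3, scipy 1.17.1 and matplotlib 3.10.9 were used.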

Additional observations from a re-analysis of the deposited data

How the results depend on the processing

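No paired analysis was possible because each line and protein had 1 library. Of 62 values recomputed under the alternatives, 46 stayed within the exact 95% interval of the reported share or within 1.5 times the reported count, and 16 did not. These intervals are wide, so shares within them can still differ by many percentage points. Asking for 50% of both peaks left 27.3% of C59 and 36.0% of WT Smc3 peaks of the locus on CTCF, and 63.6% of C59 Smc3 peaks shared with WT. With summits within 150 bp, 76.0% of WT Smc3 peaks lay on CTCF and 89.5% of C59 CTCF peaks were shared with WT. With a −log10 q of at least 5, 100% of WT Smc3 peaks lay on CTCF. With equal numbers of peaks in all lists, the locus held 12 CTCF peaks in C59 and 12 in WT, and 11 Smc3 peaks in C59 and 10 in WT. Then 72.7% of C59 Smc3 peaks (8 of 11) and 100% of WT Smc3 peaks lay on CTCF. C59 had a peak at 80.0% of the WT Smc3 peaks (44.4 to 97.5), beside 40.0% with the full lists. The shortening kept the peaks with the lowest p-values, and C59 Smc3, the shortest list, lost none. List length and peak strength cannot be told apart in this change. Windows of 50 kb held 19 and 18 CTCF peaks in C59 and WT, and 7 and 16 Smc3 peaks. A window of 200 kb held 64 WT CTCF peaks. A peak missing from a list shows only a signal below the authors' threshold.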
